A study of Mus musculus with 12 samples.

Results

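Skeletal muscle contractile and metabolic genes were followed tumor by tumor in MC38 tumors treated with SFIH, with an anti-PD-1 antibody or with both. The 40 genes were chosen by name for their known roles in muscle fibers, and all 40 were found among the 23282 rows of the count table. They were divided by general knowledge into 14 genes typical of fast fibers, 8 genes typical of slow fibers and 18 genes that both kinds of fiber use. The gene list and its division were written with earlier results of these data known.

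MC38 cells are an established line from a colon carcinoma of the mouse. The tumors grew subcutaneously in the right flank of specific pathogen-free female C57BL/6 mice, aged 6 weeks and labelled as genotype WT, and all samples carry the time label Day 19. The sesquiterpene lactone-rich fraction of the herb Inula helenium, called SFIH, was given into the peritoneum every day at 50 mg/kg, and each injection of the PD-1 antibody held 200 μg. Control mice (Con) received the saline vehicle with an IgG2a antibody, the SFIH and PD groups received a single agent, and the Comb group received both, with 3 tumors sequenced per group. The RNA came from pieces of whole tumor, although the labels give the cell type as tumor cells, so that host tissue in a piece was sequenced with it. Of 12 colon epithelium genes examined, Lgals4 had 0 counts in all 12 tumors, and Cdx1 and Cdx2 had at most 2 counts in any of them. Others of the 12 genes were present, with Cdh1 at 16 to 157 counts over the tumors and Vil1 at 0 to 75. The epithelial genes Krt8 and Krt18 had 0 to 42 counts in 11 tumors, and 255 and 219 in Comb replicate 3. The total count per tumor was between 7870741 and 12261032.

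Skeletal muscle fibers contract when calcium, released from the sarcoplasmic reticulum, binds troponin on the thin filament and lets myosin heads pull on actin. Fast and slow fibers build this machine from different members of the same gene families, and the myosin heavy chain is the classical marker of the fiber type. Myh4 encodes the heavy chain of the fastest mouse fibers (type IIB), Myh1 that of type IIX fibers, Myh2 that of type IIA fibers and Myh7 that of slow fibers. Transcription of the muscle genes depends on MyoD family factors, which bind E boxes, on MEF2 factors, and on serum response factor, which binds CArG boxes.

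The promoters of the 4 heavy chain genes are shown because these genes separate the fiber types in the results. They are RefSeq sequences on GRCm38.p6, from 250 bases before to 50 bases after the start, given 5′ to 3′ on the strand of the gene. Capitals mark matches, on either strand, to an E box (CANNTG), a MEF2 box or a CArG box, and no matches overlapped in these 4 sequences. Myh2 lies at chr11:67170777-67171076, Myh1 at chr11:67199852-67200151 and Myh4 at chr11:67237562-67237861, all on the plus strand, and Myh7, for which the first of 2 entries is shown, lies at chr14:54994577-54994876 on the minus strand.
Myh4: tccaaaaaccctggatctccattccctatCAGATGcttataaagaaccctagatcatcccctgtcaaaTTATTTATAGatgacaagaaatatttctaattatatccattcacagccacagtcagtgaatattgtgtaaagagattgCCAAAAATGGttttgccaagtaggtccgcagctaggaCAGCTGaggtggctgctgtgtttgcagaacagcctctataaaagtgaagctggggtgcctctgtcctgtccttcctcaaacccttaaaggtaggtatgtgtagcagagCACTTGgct
Myh1: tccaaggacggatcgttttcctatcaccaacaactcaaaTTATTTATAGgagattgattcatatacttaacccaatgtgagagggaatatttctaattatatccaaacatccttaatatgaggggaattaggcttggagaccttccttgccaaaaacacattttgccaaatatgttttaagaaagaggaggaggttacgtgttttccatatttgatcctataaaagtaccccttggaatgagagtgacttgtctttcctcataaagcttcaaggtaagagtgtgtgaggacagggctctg
Myh2: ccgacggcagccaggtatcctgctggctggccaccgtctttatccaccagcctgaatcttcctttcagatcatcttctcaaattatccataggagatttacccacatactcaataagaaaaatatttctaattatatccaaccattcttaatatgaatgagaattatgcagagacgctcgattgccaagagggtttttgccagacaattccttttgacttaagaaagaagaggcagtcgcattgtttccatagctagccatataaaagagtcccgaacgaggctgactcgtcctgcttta
Myh7: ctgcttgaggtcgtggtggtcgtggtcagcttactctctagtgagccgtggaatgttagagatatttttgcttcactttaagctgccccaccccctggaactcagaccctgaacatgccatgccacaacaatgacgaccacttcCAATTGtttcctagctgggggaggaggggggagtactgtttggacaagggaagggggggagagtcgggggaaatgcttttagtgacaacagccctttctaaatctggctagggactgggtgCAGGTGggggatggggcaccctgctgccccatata

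Counted with the start base as 1 and the base before it as -1, the Myh4 promoter held a MEF2 box at -182, a CArG box at -104 and E boxes at -221, -67 and 42. The Myh1 promoter held a MEF2 box at -211, of the same 10 letters as that of Myh4 (TTATTTATAG). The Myh7 window held E boxes at -106 and 16, and the Myh2 window held none of the 3 motifs. RefSeq promoters were found for 32 of the 40 muscle genes, in 38 entries. An E box was in 33 of the 38 (86.8%) against 72.3% of all 32851 promoters of this length, a MEF2 box in 7 (18.4%) against 3.19%, and a CArG box in 2 (5.26%), those of Acta1 and Myh4, against 1.63%. These matches describe the sequence and were not tested for binding.

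Muscle genes were highest in a single tumor of the Comb group, Comb replicate 3. Of the 40 genes, 34 had their highest level there, in CPM (the count of a gene scaled to a common total count per tumor), against 23.6% of the 19137 genes with any count. Comb replicate 1 was second for 33 genes, PD replicate 1 next for 24, and SFIH replicate 1 after it for 18. These 4 tumors were the 4 highest for 18 of the 40 genes, against 0.298% of all genes with a count, and they came in exactly this order for 16, against 0.157%. Those tumors and their order were read from the ranks of these genes, so both shares describe the pattern and do not test it. The 18 genes were 8 of the 14 fast genes (Myl1, Mylpf, Tnnt3, Tnnc2, Myh1, Myh2, Myh4 and Pvalb), 9 of the 18 shared genes (Acta1, Actn2, Neb, Ttn, Tcap, Des, Smpx, Sln and Xirp2) and 1 of the 8 slow genes (Mybpc1). At this depth, 3 counts or fewer in a tumor are taken as the floor. Above that floor were 35 to 38 of the 40 genes in each of the 4 tumors and 16 to 21 in the other 8.

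**Figure D1:**
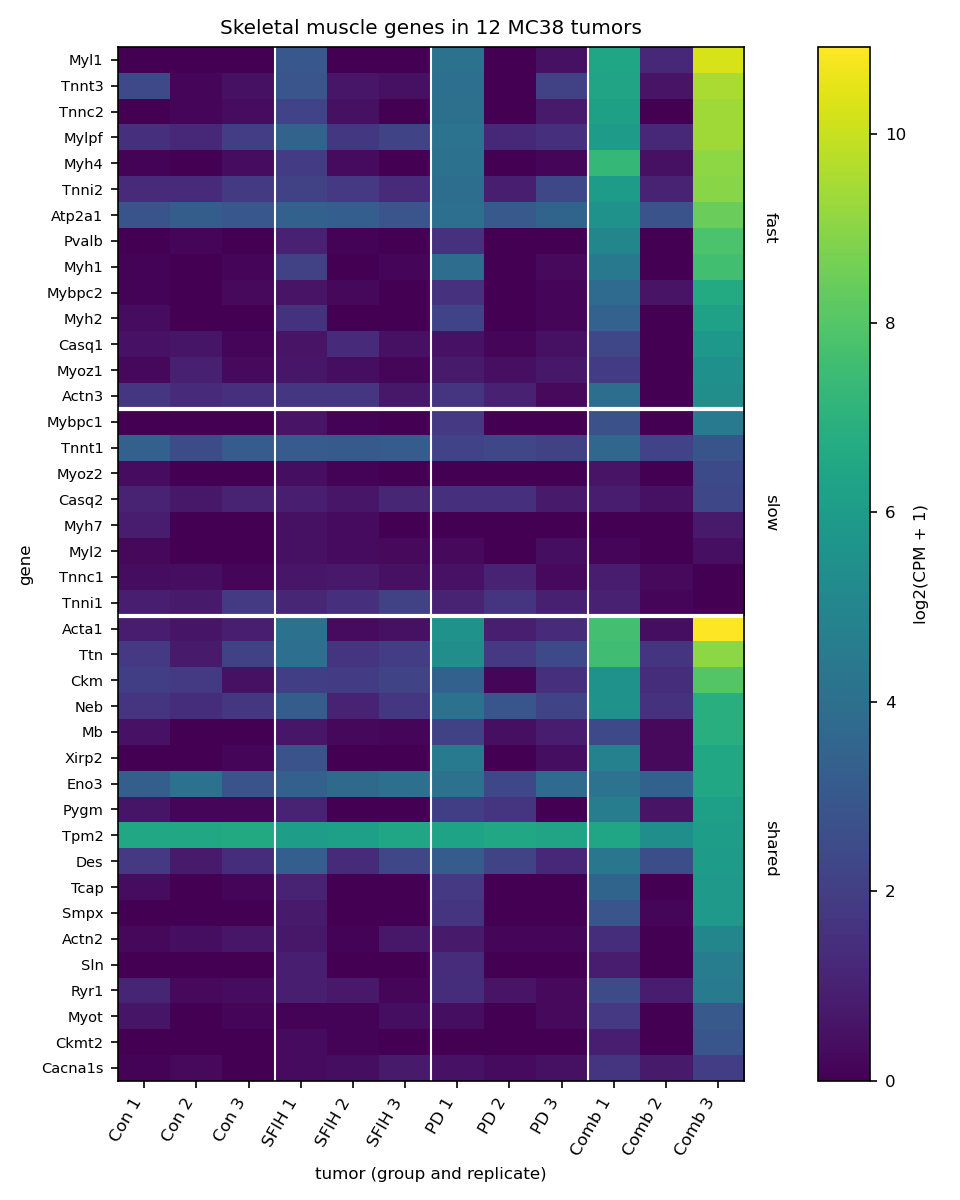
Level of the 40 muscle genes (rows, in 3 blocks of fast, slow and shared genes) in the 12 tumors (columns, divided by group), as log2(CPM + 1) in color. Comb 3 is bright across the fast and shared blocks, followed by Comb 1, PD 1 and SFIH 1, while Tpm2 is bright in every column and most of the slow block stays dark.

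Together the 40 genes took 0.894% of all counts in Comb replicate 3 (95% Wilson interval 0.889 to 0.900), 0.136% in Comb replicate 1, 0.0397% in PD replicate 1 and 0.0203% in SFIH replicate 1. In the other 8 tumors they took between 0.00813% and 0.0145%. The lowest share belonged to Comb replicate 2, so that the highest, the second highest and the lowest of the 12 shares were all in the Comb group. Tpm2 alone held 418 of the 800 muscle counts in Comb replicate 2 and 1014 of the 1593 in Con replicate 1. In whole tumor pieces, more muscle fibers in a piece and more muscle RNA per fiber cannot be told apart. Of the 4 tumors, 3 carry the replicate number 1, and what a number marks is not given in the sources used here.

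Thin filaments are the actin tracks on which myosin pulls. Acta1, the actin of skeletal muscle, had 9, 5 and 9 counts in replicates 1 to 3 of Con, 199, 3 and 4 in the SFIH tumors, 432, 7 and 15 in the PD tumors, and 1991, 3 and 21163 in Comb replicates 1 to 3. The groups overlapped, since Comb replicate 2 lay below all Con tumors, and Comb replicate 3 alone held 88.8% of all Acta1 counts in the series. Its level in Comb replicate 3, at 1927 CPM, was 9.77 times that in Comb replicate 1. Neb, the giant protein that spans the thin filament, had 16 to 23 counts in Con, 13 to 153 in the SFIH and PD tumors, and 484, 19 and 1303 in the Comb tumors.

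Troponin has a subunit that binds tropomyosin (T), an inhibitory subunit (I) and a calcium-binding subunit (C), each with a fast and a slow gene. Tnnt3, the fast troponin T, had 48, 1 and 4 counts in the Con tumors, 77, 7 and 4 in the SFIH tumors, 136, 0 and 32 in the PD tumors, and 836, 5 and 8052 in the Comb tumors. The slow counterpart Tnnt1 had 99, 44 and 80 counts in the Con tumors, 96, 92 and 79 in the SFIH tumors, 33, 31 and 32 in the PD tumors, and 114, 35 and 67 in the Comb tumors. Tnnt1 was therefore present in every tumor, was not raised in Comb replicate 3, and in all PD tumors lay below all Con tumors.

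Fast troponin I (Tnni2) had 17, 15 and 26 counts in the Con tumors, 41, 31 and 14 in the SFIH tumors, 132, 7 and 39 in the PD tumors, and 638, 11 and 5515 in the Comb tumors. Slow troponin I (Tnni1) had 10, 7 and 26 counts in the Con tumors, 15, 22 and 33 in the SFIH tumors, 10, 17 and 9 in the PD tumors, and 10, 1 and 0 in the Comb tumors. The fast and slow genes were thus opposite in Comb replicate 3, which had the highest Tnni2 level and no Tnni1 count, a count that allows a Tnni1 level of up to 0.273 CPM (3 counts of the total).

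For the calcium-binding subunit, the fast gene Tnnc2 had 0, 1 and 3 counts in the Con tumors, 44, 5 and 0 in the SFIH tumors, 143, 0 and 7 in the PD tumors, and 726, 0 and 7094 in the Comb tumors. Slow troponin C (Tnnc1), also the troponin C of the heart, had 3, 3 and 1 counts in the Con tumors, 7, 8 and 4 in the SFIH tumors, 4, 9 and 2 in the PD tumors, and 8, 2 and 0 in the Comb tumors. No tumor had more than 9 Tnnc1 counts. Tpm2, the β-tropomyosin that smooth muscle and fibroblasts also make, departed from the other shared genes. Its counts were 1014, 877 and 975 in the Con tumors, 808, 856 and 857 in the SFIH tumors, 734, 732 and 783 in the PD tumors, and 863, 418 and 728 in the Comb tumors, so that it was abundant in every tumor and was not highest in Comb replicate 3.

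Among the myosin heavy chains, Myh4 had 1, 0 and 3 counts in the Con tumors, 33, 3 and 0 in the SFIH tumors, 150, 0 and 1 in the PD tumors, and 1543, 4 and 5911 in the Comb tumors. The slow counterpart Myh7 had 9, 0 and 0 counts in the Con tumors, 5, 3 and 0 in the SFIH tumors, 0 in all PD tumors, and 0, 0 and 8 in the Comb tumors. Myh1 reached 2123 counts and Myh2 810 counts in Comb replicate 3, while each had at most 3 counts in every tumor outside the 4. The 3 fast heavy chain genes are close relatives, and how the authors treated reads that fit several of them is not given in the sources used here, so the split between them carries an error beyond counting.

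The proportions of the heavy chains differed between tumors. They were computed for the 4 tumors with at least 50 heavy chain counts, a limit set after the values were seen, since the others had 0 to 14. Myh4 made up 31.1% of the 106 heavy chain counts in SFIH replicate 1 (95% Wilson interval 23.1 to 40.5), 48.2% of 311 in PD replicate 1 (42.7 to 53.8), 83.5% of 1849 in Comb replicate 1 (81.7 to 85.1) and 66.8% of 8852 in Comb replicate 3 (65.8 to 67.7). The share of Myh1 was 40.6%, 41.2%, 11.1% and 24.0% in the same order, and that of Myh2 23.6%, 10.6%, 5.41% and 9.15%. The intervals of the Myh4 share did not overlap, although these are single libraries and the intervals cover counting error only. Myh7 held 4.72% in SFIH replicate 1, from 5 counts, and 0.0904% in Comb replicate 3. It had no count in PD replicate 1 and Comb replicate 1, which allows shares of up to 0.965% and 0.162%.

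**Figure D2:**
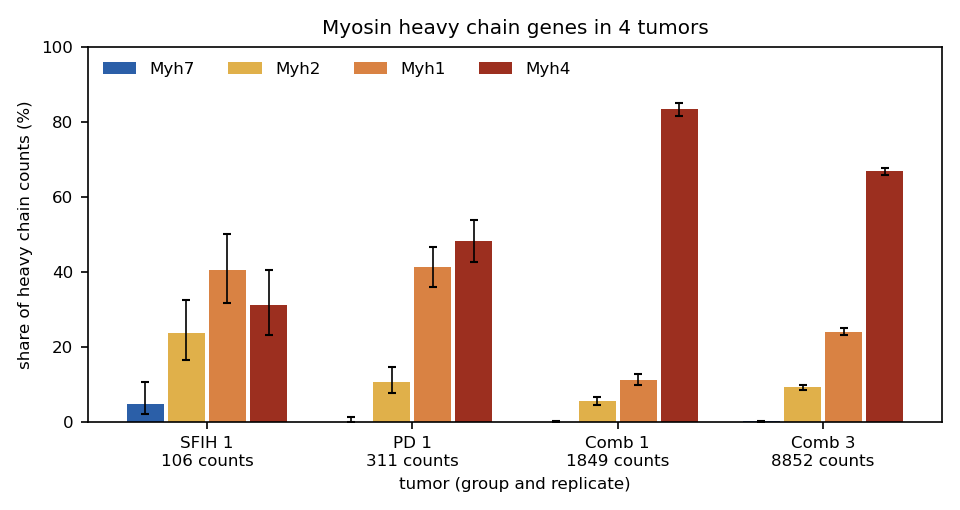
Share of the counts of 4 myosin heavy chain genes (vertical axis, %) in the 4 tumors with at least 50 such counts, with the number of counts under each tumor and 95% Wilson intervals as error bars. Myh4 has 83.5% in Comb 1 and 31.1% in SFIH 1, where Myh1 has 40.6%, and Myh7 is near 0 in PD 1, Comb 1 and Comb 3.

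Of the light chains, which stiffen the neck of the myosin head, the fast genes Mylpf and Myl1 were highest in Comb replicate 3 and the slow gene Myl2 was not. Mylpf, the fast regulatory light chain, had 19, 13 and 29 counts in the Con tumors, 124, 29 and 36 in the SFIH tumors, 155, 11 and 18 in the PD tumors, and 629, 14 and 7091 in the Comb tumors. The slow and cardiac regulatory light chain Myl2 had 2, 0 and 0 counts in the Con tumors, 5, 3 and 2 in the SFIH tumors, 2, 0 and 3 in the PD tumors, and 1, 0 and 4 in the Comb tumors, close to the floor throughout. Myl1, the fast alkali light chain, had no count in Con and 82, 0 and 0 counts in SFIH, 149, 0 and 4 in the PD tumors, and 852, 13 and 13464 in the Comb tumors. The Myl1 level of 1226 CPM in Comb replicate 3 was second there to that of Acta1.

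Myosin-binding protein C regulates how heads reach the thin filament. The fast gene Mybpc2 had 1, 0 and 2 counts in the Con tumors, 6, 2 and 0 in the SFIH tumors, 18, 0 and 1 in the PD tumors, and 132, 5 and 1110 in the Comb tumors. The slow gene Mybpc1, which is also made in fast fibers, had 0 counts in the Con tumors, 6, 1 and 0 in the SFIH tumors, 23, 0 and 0 in the PD tumors, and 56, 0 and 247 in the Comb tumors. Mybpc1 was the slow gene whose 4 highest tumors were Comb replicates 3 and 1, PD replicate 1 and SFIH replicate 1.

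Calcium handling genes included members with a level in every tumor. Atp2a1, the fast calcium pump of the sarcoplasmic reticulum (SERCA1), had 67, 80 and 68 counts in the Con tumors, 116, 105 and 61 in the SFIH tumors, 138, 57 and 101 in the PD tumors, and 468, 58 and 3711 in the Comb tumors. Pvalb, a calcium buffer of the fastest fibers, had 0, 1 and 0 counts in the Con tumors, 12, 1 and 0 in the SFIH tumors, 18, 0 and 0 in the PD tumors, and 315, 0 and 2444 in the Comb tumors. Both were highest in Comb replicate 3, but Atp2a1 lay well above the floor in all 12 tumors and Pvalb was at the floor in 8 of them.

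Calsequestrin stores calcium in the reticulum. Casq1, its fast form, had 5, 5 and 1 counts in the Con tumors, 6, 18 and 4 in the SFIH tumors, 4, 1 and 4 in the PD tumors, and 41, 0 and 613 in the Comb tumors. The slow and cardiac form Casq2 had 12, 6 and 11 counts in the Con tumors, 11, 7 and 12 in the SFIH tumors, 17, 14 and 7 in the PD tumors, and 8, 4 and 45 in the Comb tumors. Comb replicate 3 was highest for both, 613 counts for the fast form and 45 for the slow. The release channel Ryr1 had 243 counts there, 48 in Comb replicate 1 and 1 to 16 in the other 10 tumors. Its voltage sensor Cacna1s had 32, 21 and 0 to 7 in the same order. Sln, a small inhibitor of the pump, reached 262 in Comb replicate 3. Sln departed from the common order, with 11 counts in SFIH replicate 1, 15 in PD replicate 1 and 8 in Comb replicate 1, and it had no count in the other 8 tumors.

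Titin (Ttn), the elastic filament that runs from the Z disc to the middle of the sarcomere, had 28, 7 and 33 counts in the Con tumors, 184, 27 and 29 in the SFIH tumors, 385, 20 and 41 in the PD tumors, and 1888, 21 and 5927 in the Comb tumors. Desmin (Des), which ties neighboring myofibrils together and is also made by smooth muscle, had 27, 7 and 17 counts in the Con tumors, 104, 19 and 39 in the SFIH tumors, 74, 29 and 13 in the PD tumors, and 189, 51 and 688 in the Comb tumors. For Des, all Comb tumors lay above all Con tumors in CPM, whereas Ttn in Comb replicate 2 lay within the range of Con.

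Calsarcins anchor calcineurin at the Z disc, the border of the sarcomere. The fast gene Myoz1 had 2, 9 and 2 counts in the Con tumors, 7, 4 and 1 in the SFIH tumors, 7, 3 and 6 in the PD tumors, and 29, 0 and 482 in the Comb tumors. The slow counterpart Myoz2 had 3, 0 and 0 counts in the Con tumors, 4, 1 and 0 in the SFIH tumors, 0 in all PD tumors, and 5, 0 and 49 in the Comb tumors. Actn3, the α-actinin of fast fibers at the Z disc, had 449 counts in Comb replicate 3, 144 in Comb replicate 1 and 0 to 28 in the other 10 tumors, with 14 to 25 in Con. In the same order, the other Z disc genes had 338, 17 and 0 to 8 counts (Actn2), 643, 107 and 0 to 23 (Tcap) and 79, 25 and 0 to 6 (Myot). Xirp2, an actin-binding protein that accumulates at sites of strain and damage, had 72 counts in SFIH replicate 1, 204 in PD replicate 1, 272 in Comb replicate 1 and 1009 in Comb replicate 3, against at most 3 in any other tumor. Smpx, a small protein of the muscle cytoskeleton, had 9, 21, 65 and 623 counts in the same 4 tumors and at most 1 elsewhere.

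Metabolic genes were highest in the same tumor. Ckm, the muscle creatine kinase that regenerates ATP, had 33, 25 and 4 counts in the Con tumors, 37, 33 and 37 in the SFIH tumors, 88, 1 and 18 in the PD tumors, and 464, 17 and 2773 in the Comb tumors. Mb, the oxygen-binding myoglobin, had 5, 0 and 0 counts in the Con tumors, 7, 2 and 1 in the SFIH tumors, 31, 3 and 8 in the PD tumors, and 44, 2 and 1254 in the Comb tumors. For Ckm, SFIH replicate 1 did not stand apart from the other SFIH tumors. Pygm, which breaks down glycogen, had 770 counts in Comb replicate 3, 229 in Comb replicate 1 and 0 to 29 elsewhere. Ckmt2, the creatine kinase of mitochondria, had 73, 9 and 0 to 3 counts in the same order. Eno3, the muscle enolase, had 33 to 170 counts in 11 tumors and 1006 in Comb replicate 3.

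Fast genes outweighed slow genes most in Comb replicates 3 and 1 and in PD replicate 1. The level of a gene in CPM was not divided by its length, because these libraries hold reads from the 3′ end of each transcript only. Summed over the 14 fast genes, levels were 17.2, 14.5 and 15.7 CPM in the Con tumors, 52.5, 19.2 and 13.0 in the SFIH tumors, 132, 11.1 and 22.8 in the PD tumors, and 660, 11.2 and 5361 in the Comb tumors. Summed over the 8 slow genes they were 12.6, 6.24 and 11.8 CPM in the Con tumors, 12.2, 11.3 and 13.3 in the SFIH tumors, 9.57, 9.02 and 5.54 in the PD tumors, and 20.01, 4.27 and 38.2 in the Comb tumors. The fast sum therefore covered a range of 11.1 to 5361 CPM over the 12 tumors and the slow sum a range of 4.27 to 38.2 CPM.

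Counts of fast genes were 140 times those of slow genes in Comb replicate 3 (95% Wilson interval 127 to 154), 33.0 times in Comb replicate 1 (28.7 to 37.9), 13.8 times in PD replicate 1 (11.2 to 17.2) and 4.32 times in SFIH replicate 1 (3.62 to 5.16). Elsewhere the ratio was 0.977 to 4.11, with the highest of these in PD replicate 3 (3.05 to 5.55), whose interval overlapped that of SFIH replicate 1. Tnnt1 weighed heavily in the slow sum, and leaving it out gave a ratio of 75.7 in Comb replicate 1, 22 in PD replicate 1, 12.2 in SFIH replicate 1 and 2.175 to 15.7 in the tumors outside these 4, so that Comb replicate 2, at 15.7, lay above SFIH replicate 1. The 15.7 of Comb replicate 2 rested on 7 slow counts other than those of Tnnt1. Leaving out Atp2a1 instead gave 0.423 to 2.21 in the tumors outside the 4. In Comb replicate 3 the ratio was 340 without Mybpc1 and 108 without Myl1. All 14 fast genes were highest in Comb replicate 3, as were 17 of the 18 shared genes (all but Tpm2) and 3 of the 8 slow genes (Mybpc1, Casq2 and Myoz2). Of all genes with a count, 23.6% were highest there.

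**Figure D3:**
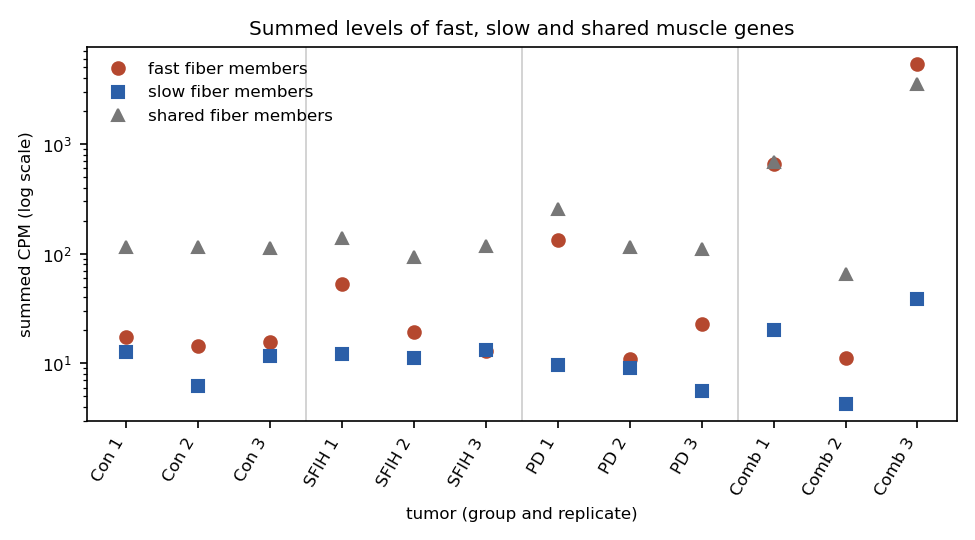
Summed level of the 14 fast, 8 slow and 18 shared muscle genes in each of the 12 tumors, in CPM on a log scale, with gray lines between the groups. Fast genes span 11.1 to 5361 CPM, whereas slow genes stay between 4.27 and 38.2 CPM.

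The make-up of the muscle signal was compared between the 4 tumors as counts per 100 counts of Acta1, with exact 95% intervals for counting error. Tnnc2 kept close to Acta1, with 22.1 (15.6 to 30.8) in SFIH replicate 1, 33.1 (27.2 to 40.1) in PD replicate 1, 36.5 (33.4 to 39.7) in Comb replicate 1 and 33.5 (32.6 to 34.4) in Comb replicate 3. The intervals of the last 3 overlapped. Myl1 had 41.2, 34.5 and 42.8 in the first 3 tumors and 63.6 (62.3 to 65.0) in Comb replicate 3.

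Other genes did not scale with Acta1. Ttn, which had 7 to 33 counts in the Con tumors, had 92.5 (75.3 to 114), 89.1 (77.5 to 102) and 94.8 (89.0 to 101) per 100 Acta1 counts in SFIH replicate 1, PD replicate 1 and Comb replicate 1, and 28.0 (27.2 to 28.8) in Comb replicate 3. Xirp2 had 36.2 (27.2 to 47.6), 47.2 (39.8 to 55.9), 13.7 (12.0 to 15.5) and 4.77 (4.47 to 5.08) in the same order, so both Comb tumors lay below the other tumors. Myh4 was highest in Comb replicate 1, at 77.5 (72.5 to 82.9), against 16.6 (11.1 to 24.1), 34.7 (28.6 to 41.9) and 27.9 (27.1 to 28.7) in SFIH replicate 1, PD replicate 1 and Comb replicate 3.

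**Figure D4:**
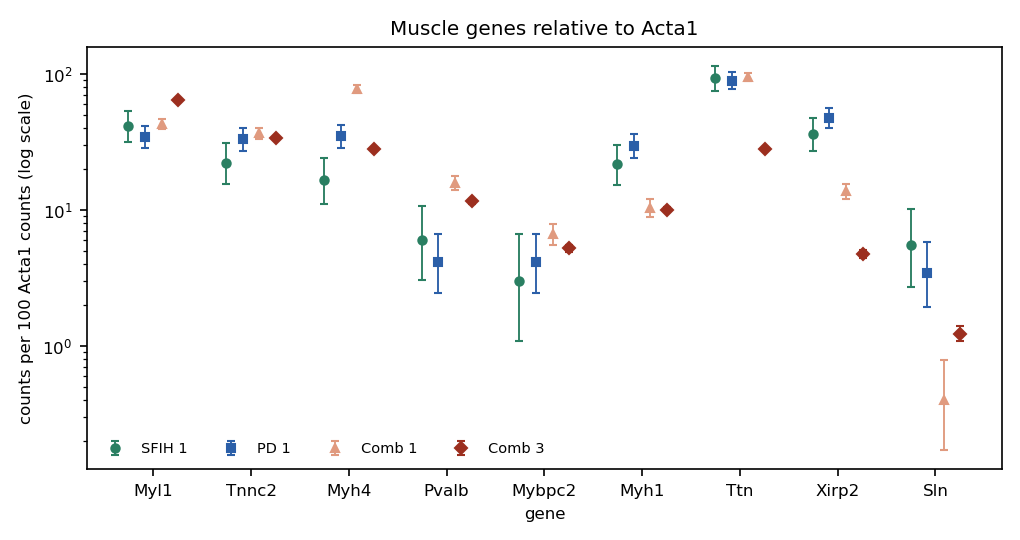
Counts of 9 muscle genes per 100 counts of Acta1 (log scale) in the 4 tumors with at least 50 heavy chain counts, with exact 95% intervals for counting error. Tnnc2 is alike in PD 1, Comb 1 and Comb 3, while Ttn and Xirp2 are lowest in Comb 3 and Myh4 is highest in Comb 1.

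The step between tumors also differed from gene to gene. From Comb replicate 1 to Comb replicate 3, levels differed by a median of 5.52 times over the 31 genes with at least 20 counts in both, from 0.540 times for Tnnt1 to 26.2 times for Mb. From PD replicate 1 to Comb replicate 1 the median was 3.46 times over 24 genes, from 1.04 for Eno3 to 9.47 for Myh4. From SFIH replicate 1 to PD replicate 1 it was 2.33 times over 19 genes, from 0.453 for Tnnt1 to 5.99 for Myh4.

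The design asks whether each treatment changed gene expression against Con and whether Comb differed from the single agents. Of the 40 genes, 30 passed the filter on low counts, and the 10 that did not were Myoz1 among the fast genes, Myh7, Myl2, Myoz2 and Tnnc1 among the slow, and Actn2, Cacna1s, Ckmt2, Myot and Sln among the shared. None of the 30 had an adjusted p under 0.05 in any of 6 comparisons (quasi-likelihood test of edgeR, with p-values adjusted by Benjamini-Hochberg over 13464 genes), where 0% of all genes did in each. In the paper, cells were injected into the right flank of the mice, and the mice were divided into groups once tumors had grown. This points to separate mice for the tumors of a group. How the sequenced tumors were chosen is not given in the sources used here. The p-values weigh a difference between groups only against the spread of these tumors. Several comparisons share Con or Comb tumors and are not independent of each other.

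For SFIH against Con, 0 of the 30 genes had an unadjusted p under 0.05 with edgeR, against 2.25% of all genes, and DESeq2, another test for counts, gave 0 of 40 with an adjusted p under 0.05, against 0.0105%. The median log2 fold change over the 30 was 1.10, against 0.02 over all genes, and was 0.00 without SFIH replicate 1. With the genes that had no count in Con set to a bound at the floor, it was 0.85. Without Con replicate 1 it was 1.72 over the same 30 genes. With the SFIH and Con tumors fitted alone, 13 muscle genes passed the filter on low counts, with a median of 0.34, against 0.35 for the same 13 in the fit of all tumors. In CPM, Cacna1s, Myl2 and Tnnc1 were higher in all SFIH tumors than in all Con tumors (6.2% of all genes were), though none of them had more than 8 counts in a tumor of either group. Tpm2 was lower without overlap (6.85% of all genes were), and it overlapped when levels were scaled by TMM factors, which correct library totals for a few very abundant genes.

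For PD against Con, 2 of the 30 genes had an unadjusted p under 0.05 with edgeR, Xirp2 (higher) and Tnnt1 (lower), against 3.99% of all genes, and DESeq2 gave 0 of 40 with an adjusted p under 0.05, against 0.0105%. The median log2 fold change was 2.45 over the 30 genes and 0.01 over all genes, it was 1.87 with the bounds, and without PD replicate 1 it was 0.05. With the PD and Con tumors fitted alone, 14 muscle genes passed the filter, with a median of 0.83, against 0.86 for the same 14 in the fit of all tumors. Cacna1s and Neb were higher without overlap between the groups, against 5.03% of all genes, and Tnnt1 was lower without overlap, against 11.4%. Under TMM factors Acta1 joined the 2 higher genes, against 7.5% of all genes.

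For Comb against Con, 26 of the 30 genes had an unadjusted p under 0.05 with edgeR, all higher in Comb, against 25.3% of all genes. With DESeq2, 27 of 38 genes had an adjusted p under 0.05, all higher in Comb, against 13.8% of all genes. These 27 were 13 of the 14 fast genes, 14 of the 18 shared genes and no slow gene. Without Comb replicate 1, edgeR gave 27 of 31 genes, 26 higher and Tnni1 lower, against 28.5% of all genes, and 22 of these were among the DESeq2 calls. The median log2 fold change over the 30 genes was 7.29 (7.13 with the bounds), against -0.03 over all genes, and by class it was 8.43 over 13 fast genes, 0.75 over 4 slow genes and 7.18 over 13 shared genes. The class medians leave out genes that failed the filter, and some genes passed it only through tumors where they were high. Without the filter, the median over all 40 genes was 6.54. Without Comb replicate 3 the median over the 30 was 4.42. With the Comb and Con tumors fitted alone, 15 muscle genes passed the filter, with a median of 4.69, against 4.64 for the same 15 in the fit of all tumors. Cacna1s, Des, Mybpc2, Myh4, Myl1, Smpx and Xirp2 were higher in all Comb tumors than in all Con tumors (7 of 40, against 6.3% of all genes), and Tpm2 was lower (16.8%). Under TMM factors Tpm2 overlapped here too, and 9 genes were higher without overlap, against 9.36% of all genes under the same scaling.

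Fold changes between Comb and Con, on the log2 scale with their standard errors, were large beside a large spread. Acta1 was higher by 10.32 ± 2.92 (edgeR adjusted p = 0.0739), Ttn by 7.18 ± 1.83 (adjusted p = 0.0671), Atp2a1 by 4.64 ± 1.13 (adjusted p = 0.0665) and Des by 4.52 ± 1.06 (adjusted p = 0.0665). The troponins Tnnt3 and Tnni2 were higher by 7.78 ± 2.33 and 7.08 ± 1.73, Mylpf by 7.35 ± 1.87, Ckm by 6.04 ± 1.62 and Casq1 by 6.20 ± 1.73, with adjusted p-values from 0.0665 to 0.0806. Myh4, Tnnc2 and Mb had fitted values of 11.06, 11.16 and 8.30, which depend on the prior count because their Con counts were 5 or fewer in total, and their adjusted p-values were 0.0671, 0.0686 and 0.0671. For Pvalb and Mybpc2, with 1 and 3 counts in Con in all, the adjusted p was 0.0665 for each. None of these 14 genes passed the threshold of 0.05 in this fit, whereas all 14 passed it with DESeq2 and with edgeR when Comb replicate 1 was left out. For each of them, Comb replicates 1 and 3 lay above all Con tumors, whereas Comb replicate 2 had 0 to 58 counts.

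Slow counterparts did not pass the threshold either when all tumors were fitted. Tnnt1 differed by 0.19 ± 0.38 (edgeR adjusted p = 0.751), Tnni1 by -1.75 ± 0.995 (adjusted p = 0.284) and Casq2 by 1.31 ± 0.85 (adjusted p = 0.340). Without Comb replicate 1, Tnni1 differed by -4.21 and passed it (edgeR adjusted p = 0.0271), and over the alternatives in which it was tested its adjusted p lay between 0.0271 and 0.585. The difference of Tnnt1 was -0.04 when no TMM factors were used and that of Casq2 was -0.49 without Comb replicate 3, so neither has a fixed direction. For Mybpc1 the adjusted p was 0.0910 with edgeR and 0.0746 with DESeq2. It was 0.0407 without Comb replicate 1, where Mybpc1 passed as higher in Comb, and 0.0407 to 0.247 over the alternatives in which the gene was tested. Only the counts given above describe its size, since Con had none. Myoz2 did not pass the filter on low counts, and its adjusted p with DESeq2 was 0.186.

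Comb was also compared with the single agents. Against PD, 24 of the 30 genes had an unadjusted p under 0.05 with edgeR, against 18% of all genes, and DESeq2 gave 10 of 37 with an adjusted p under 0.05, against 2.81%. The 10 were Actn2, Actn3, Atp2a1, Casq1, Ckm, Des, Mylpf, Myoz1, Ryr1 and Tnni2, all higher in Comb. Without Comb replicate 1, edgeR gave 10 of 31 genes, 9 higher and Tnni1 lower, against 15.2% of all genes, and it shared 6 with DESeq2. The median log2 fold change over the 30 genes was 4.63, and it was 2.15 without Comb replicate 3 and 6.76 without PD replicate 1. Only Cacna1s was higher without overlap (3.64% of all genes were), and no muscle gene was lower without overlap (6.72%).

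Against SFIH, 27 of the 30 genes had an unadjusted p under 0.05 with edgeR, of which Tnni1 was lower in Comb and the others higher, against 19% of all genes. DESeq2 gave 19 of 39 with an adjusted p under 0.05, all higher in Comb, against 7.78% of all genes. Without Comb replicate 1, edgeR gave 20 of 31 genes, 19 higher and Tnni1 lower, against 22.5% of all genes, and it shared 15 with DESeq2. The median log2 fold change over the 30 was 5.85, with 3.02 when Comb replicate 3 was left out and 7.36 when SFIH replicate 1 was. Mybpc2 was higher without overlap (4.13% of all genes were) and Tnni1 lower (11.8%). Under TMM factors Cacna1s and Ryr1 joined Mybpc2, against 6.34% of all genes.

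The interaction asks whether SFIH had another effect with the antibody than without it. With edgeR, 4 of the 30 genes had an unadjusted p under 0.05 (Actn3, Atp2a1, Ryr1 and Tnni2), against 2.55% of all genes. DESeq2 gave 0 of 40 with an adjusted p under 0.05, against 0.00526%. The median over the 30 genes was 2.78 on the log2 scale. It was 0.67 without Comb replicate 3, 4.79 without SFIH replicate 1 and 5.47 without PD replicate 1.

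Other genes of muscle followed the same tumor. Of 74 further muscle genes listed from general knowledge, 73 were in the table. Of these, 56 (76.7%) were highest in Comb replicate 3, against 23.6% of all genes with a count. The same 4 highest tumors were found for 12, against 0.298%. Among 29 contractile and structural genes, 24 were highest in Comb replicate 3, against the same 23.6%. So were 16 of 24 genes of calcium handling and the membrane and 16 of 20 metabolic genes. Trdn, which anchors calsequestrin to the release channel, had 0, 0 and 2 counts in the Con tumors, 25, 4 and 0 in the SFIH tumors, 53, 0 and 2 in the PD tumors, and 253, 5 and 1453 in the Comb tumors. Ldb3 of the Z disc had 714 counts in Comb replicate 3, Cox8b, a subunit of cytochrome c oxidase in muscle, 629, and Pgam2, the muscle phosphoglycerate mutase, 473. Slc25a4, the ATP/ADP carrier of mitochondria, did not follow and had 3877 counts in Comb replicate 3, its lowest count in the 12 tumors.

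Most regulators of muscle formation were near the floor, unlike Des, given above, Mef2c and, in Comb replicate 3, Mstn. Mef2c, a factor that other cell types also express, had 292 to 997 counts in 11 tumors and 1938 in Comb replicate 3. Myod1, Myf5, Myf6 and Pax7, which mark muscle precursors or drive their differentiation, had at most 6 counts in any tumor, and Myog had 8 in SFIH replicate 1. The perinatal heavy chain Myh8 had 3 counts in SFIH replicate 1, 17 in PD replicate 1, 36 in Comb replicate 1 and 57 in Comb replicate 3 and none elsewhere. Mstn, which limits muscle growth, had 117 counts in Comb replicate 3 and at most 2 in any other tumor.

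Markers of other tissues were read beside the muscle genes. The summed level of 8 heart genes, 1 of them Myl2, was 9.51 to 47.3 CPM over the 12 tumors and 10.5 CPM in Comb replicate 3, and Myh6, the heart heavy chain, had 0 counts there. The 10 smooth muscle genes, Des among them, summed to 141 to 281 CPM, with 281 in Comb replicate 3. Without Des they summed to 219 CPM there and were highest in Comb replicate 2, at 243 CPM. The 16 skin genes summed to 547 CPM in Comb replicate 3, 74.8 CPM in SFIH replicate 1 and 11.9 to 45.1 CPM in the other 10 tumors, so PD replicate 1 and Comb replicate 1 had muscle counts with 17.7 and 16.4 CPM of skin genes. Krt5, a keratin of the basal epidermis, had 834 counts in Comb replicate 3, 54 in SFIH replicate 1 and at most 12 elsewhere.

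The 14 adipocyte genes summed to 1103 CPM in Comb replicate 3, 488 CPM in Comb replicate 2, 209 CPM in SFIH replicate 2 and 77.8 to 130 CPM in the others. Adipoq, the fat cell hormone, had 288, 335 and 155 counts in these 3 tumors, but 2, 14 and 8 in SFIH replicate 1, PD replicate 1 and Comb replicate 1. Fabp4 held 8732 and Car3 927 of the 12111 adipocyte counts in Comb replicate 3. In Comb replicate 2, Fabp4 held 2283 and Car3 447 of 4803. The 8 nerve genes summed to 135 CPM in Comb replicate 3 and 22.1 to 59.5 CPM in the others, and the 12 colon epithelium genes to 92.9 CPM against 4.81 to 22.3 CPM. In Comb replicate 3, Pmp22, which many cell types express, held 1128 of the 1481 nerve counts, and Sox10 and Prx had 0. Of the colon epithelium genes, Krt8, Krt18, Krt19, Epcam and Cdh1 held most of its counts, and Cdx1, Cdx2, Vil1, Lgals4 and Muc2 had 0 there. Comb replicate 3 thus had the highest sums of muscle, skin and fat genes, and the other 3 tumors with muscle counts did not share all of these. The part of other tissues in the differences between groups was not tested.

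**Figure D5:**
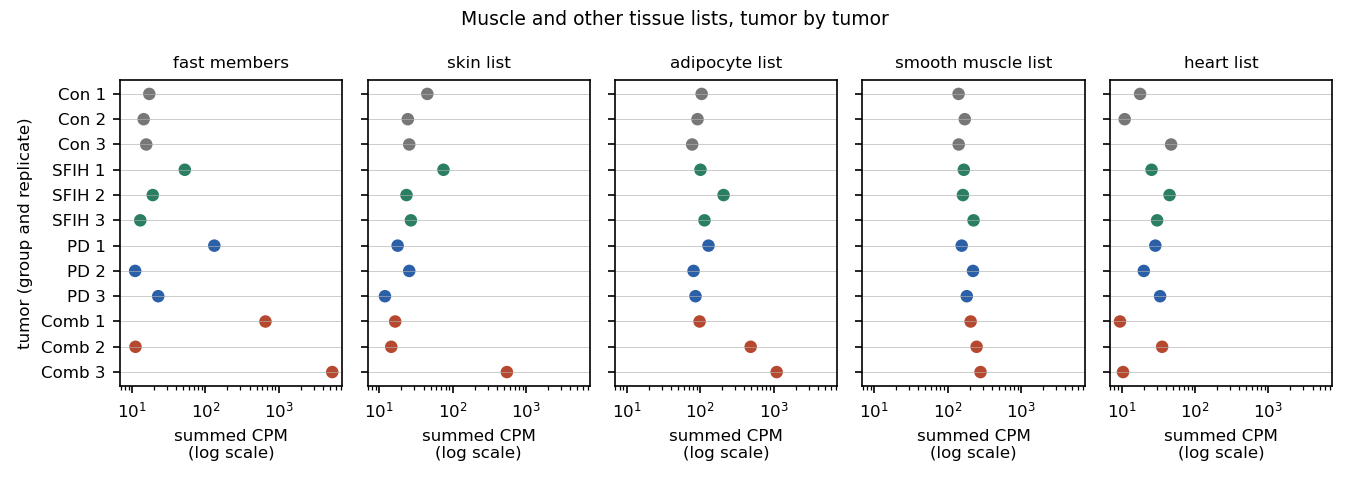
Summed level of the 14 fast muscle genes and of 4 other gene lists (skin, adipocyte, smooth muscle and heart) in each tumor, in CPM on a log scale common to the 5 panels, colored by group. Comb 3 is highest for the fast muscle, skin and adipocyte lists, and for the smooth muscle list only with Des (243 CPM in Comb 2 and 219 CPM in Comb 3 without it), while PD 1 and Comb 1 are raised for the fast muscle list and not for the skin list.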

How the data were processed

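Total RNA of 12 tumor pieces was made into QuantSeq 3′ mRNA-Seq libraries and sequenced on an Illumina NextSeq instrument. The authors deposited raw read counts per gene symbol, without normalization, 1 column per tumor. The aligner, counting tool, genome build and annotation are not given in the sources used here. The paper names no molecular identifiers for the reads. Intervals (95%, Wilson for shares, exact for ratios to Acta1) and the floor of 3 counts treat each read as a separate molecule and cover counting error only. Of the rows, 46 repeat a symbol and were kept apart.

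Groups and replicate numbers came from the sample labels. The main test was the quasi-likelihood test of edgeR 4.0.16 in R 4.3.3 (filterByExpr, TMM, all 12 tumors in 1 fit, no block, two-sided, Benjamini-Hochberg adjustment, threshold 0.05). DESeq2 1.42.0, which the study names for its sequencing of the tumors, was an alternative. Other alternatives were the normalization, the filter, the compared groups alone, a replicate block and each tumor left out. The fits were run on simulated data with a common dispersion and with shifts shared by all Comb tumors. Those data did not imitate genes that are high in single tumors. Tables and figures used Python 3.11.15, numpy 2.4.6, pandas 2.3.3, scipy 1.17.1 and matplotlib 3.10.9.

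The muscle genes and all gene lists were chosen with earlier results of these data known. Every muscle gene was accounted for. Values in all tumors were given for the 8 pairs of fast and slow counterparts and for Acta1, Ckm, Atp2a1, Pvalb, Mb, Ttn and Des, with fold changes for those of them that passed the filter on low counts, except Pvalb, Mybpc1 and Mybpc2, which had 3 or fewer counts in Con in all, and other muscle genes were given by ranges or by their highest tumors, or in full where they departed. Genes of the other lists were given by counts, with a few of the highest named, and the choice of those named was made after their values were seen.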

Additional observations from a re-analysis of the deposited data

How the results depend on the processing

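The count of muscle genes with an adjusted p under 0.05 stayed at 0 in the comparisons of SFIH and PD with Con and in the interaction under all alternatives, with 0 to 0 over the fits that left out 1 tumor each. Fits of the compared groups alone tested only 13 to 28 muscle genes. Between Comb and Con it was 27 with DESeq2, and 0 to 27 over the left-out fits, between Comb and PD 10 and 0 to 10, and between Comb and SFIH 19 and 0 to 20. The upper ends came from the fit without Comb replicate 1, and the cause was not tested. DESeq2 and that fit shared 22, 6 and 15 of their genes. Over all genes, that fit gave 3943, 2100 and 3118 calls and DESeq2 gave 2056, 399 and 1190.

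The log2 fold change of Tnnt1 between Comb and Con reversed to -0.043 without TMM and, over the left-out fits, lay between -0.16 and 0.49. It was -0.16 without Comb replicate 1 and -0.04 without Con replicate 2. That of Casq2 lay between -0.49 and 1.77 and reversed without Comb replicate 3. Of the alternatives for the 17 named genes, 280 kept direction and side of the threshold and 29 passed it, all with DESeq2 or without Comb replicate 1. Adjusted p-values of Acta1 ranged from 4.45e-05 to 0.243 over these. Without TMM the median of all genes moved to -0.29 between Comb and Con.

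No label says that a shared replicate number pairs tumors. Correlations of deviations from the group means were -0.288 to 0.409 over 18 pairs with the same number, and 6 exceeded 0.1. With a replicate block, 0 muscle genes passed in each of the 6 comparisons, as did 0 of all genes. Overlap of the groups under TMM factors and the smooth muscle sum without Des were examined after seeing the data.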
